A study of Saccharomyces cerevisiae with 6 samples.

Results

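The genes of glycerol synthesis, transport and use were followed in budding yeast, Saccharomyces cerevisiae. They were chosen by name, as GPD1 (YDL022W), GPD2 (YOL059W), GPP1 (YIL053W), GPP2 (YER062C), GUT1 (YHL032C), GUT2 (YIL155C), STL1 (YDR536W) and FPS1 (YLL043W). Of these 8 genes, 7 were in the deposited table, which holds 4014 genes, and the level and 3′ ends of STL1 were not analysed here. They had 21 of the 13565 clusters of 3′ ends in the table. The groups were 3 libraries of a strain with JHD2 deleted and 3 libraries of a strain labelled wild type for JHD2, all from polyadenylated RNA of cells grown to mid-log phase. The JHD2 protein is the yeast KDM5-type histone demethylase, which removes methyl groups from lysine 4 of histone H3, and the series asks about the role of such enzymes in 3′ UTR length. The labels give neither the strain background nor the growth medium, and do not say whether the replicates were separate cultures, so the p-values measure only how these libraries vary, and that variation may be technical.

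Yeast makes glycerol from dihydroxyacetone phosphate, an intermediate of glycolysis. A cytosolic NAD-dependent dehydrogenase (Gpd1 or Gpd2) reduces it to glycerol 3-phosphate, and a phosphatase (Gpp1 or Gpp2) then releases glycerol. Glycerol is the main osmolyte that yeast accumulates in high osmolarity, and its synthesis also consumes surplus cytosolic NADH when oxygen is short. The channel Fps1 lets glycerol out of the cell, and the symporter Stl1 brings it in. To use glycerol as a carbon source, the cell phosphorylates it with the kinase Gut1 and oxidises the product with the mitochondrial dehydrogenase Gut2.

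The libraries were made by 3′READS, which sequences the 3′ ends of RNA fragments that carry a poly(A) tail. A read therefore marks a cleavage and polyadenylation site (pA site), and neighbouring sites are grouped into clusters. A transcript has 1 such end whatever its length, so levels of different genes were compared without division by length. The table held 380332 to 480847 reads in the deletion libraries and 233749 to 368419 in the wild-type libraries. Wild-type replicate 2, the library with the fewest reads, stood apart. Across genes, its mean correlation with its own group was 0.946, while that of each remaining library was 0.955 to 0.974. Wild-type replicates 1 and 3 correlated on average with the deletion libraries (0.963 and 0.961) slightly more than with the other wild-type libraries (0.957 and 0.955). The latter means each include wild-type replicate 2. The own-group means of the 3 wild-type libraries (0.957, 0.946 and 0.955) fix the correlation of each wild-type pair. They put that of replicates 1 and 3 slightly above the mean of either with the deletion libraries (0.963 and 0.961). JHD2 had 0 clusters in the table, and its reads therefore give no check of the deletion. Coordinates are those of sacCer3.

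The stretch before the most-read site of each gene, and before the other sites of GPP1, GPP2 and GUT2 past the stop codon, is shown because the results turn on reads that end there. Each line gives 30 nt in the direction of transcription, with the deposited position of the cluster as the last letter. Capitals mark TATATA or TACATA, forms of the efficiency element of yeast 3′ ends, and AATAAA or AAAAAA, forms of the A-rich positioning element. Sequences are from the RefSeq assembly R64.
GPD1, 231 nt past the stop codon, chrIV:413202-413231, plus strand: tcctatagagcaaaaggattttccattata
GPD2, 273 nt past the stop codon, chrXV:218692-218721, plus strand: gtacactaacacaattaaataatcgccata
GPP1, 130 nt past the stop codon, chrIX:255968-255997, plus strand: gacttaataatataatataatacttataaa
GPP1, 159 nt past the stop codon, chrIX:255997-256026, plus strand: aatacgaatagaaaaatttaaaccgatgta
GPP2, 105 nt past the stop codon, chrV:279825-279854, minus strand: tgatgctAAAAAAcgacacatttataaaat
GPP2, 172 nt past the stop codon, chrV:279758-279787, minus strand: ttttttttaaaacatatagtgtgctattat
GPP2, 232 nt past the stop codon, chrV:279698-279727, minus strand: atgatAAAAAAggaagtaaaatccttaaac
FPS1, 122 nt past the stop codon, chrXII:52040-52069, plus strand: tTACATAgatgattgcatagtgttttaaaa
GUT1, 64 nt past the stop codon, chrVIII:36315-36344, minus strand: cataattttatattcctctccaccttctat
GUT2, 338 nt past the stop codon, chrIX:51421-51450, minus strand: agacttccgttttaatatcgttttaattat
GUT2, 441 nt past the stop codon, chrIX:51318-51347, minus strand: aaTACATAtttatggtgcAAAAAAAAAAAt
The stretches of GPP1 at 130 and 159 nt share a single base. The GUT2 site at 441 nt follows a long run of A, within which the end of a read cannot be placed exactly.

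GPP2, which encodes a glycerol 3-phosphatase, was the gene of the group whose mRNA rose in the deletion. Its level was 570, 662 and 803 CPM (reads scaled to a common library size, with TMM factors) in deletion replicates 1, 2 and 3 and 323, 273 and 279 CPM in wild-type replicates 1, 2 and 3. Every deletion library lay above every wild-type library. In bulk libraries such as these, more cells with a transcript and more of it per cell cannot be told apart. The means were 678 ± 117 and 292 ± 27.2 CPM (SD, n = 3 each), a log2 fold change of 1.21 (SE 0.16, 95% interval 0.89 to 1.53), or 2.31-fold. By edgeR's quasi-likelihood test over 3366 genes the adjusted p was 8.0e-07, and GPP2 ranked at position 13 by p. The call held in all 13 alternative analyses, with log2 fold changes of 1.06 to 1.32 and adjusted p of 1.2e-07 to 1.2e-04, and without wild-type replicate 2 the value was 1.16. GPP2 lies on chromosome V from 279930 to 280682 on the minus strand.

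**Figure D1:**
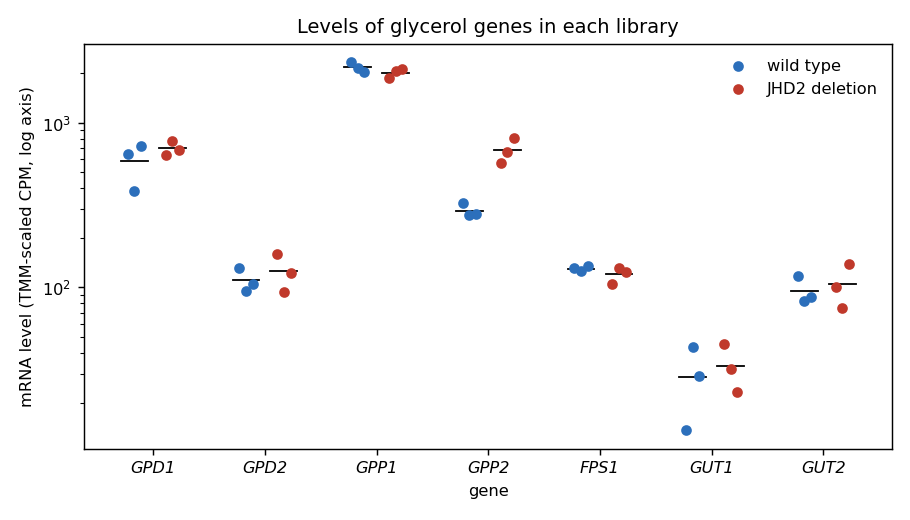
Level of each glycerol gene (TMM-scaled CPM, log axis) in the 3 wild-type and the 3 JHD2 deletion libraries, with a point per library and a bar at each mean. The GPP2 points of the deletion (570 to 803 CPM) lie above those of wild type (273 to 323 CPM), and the points of the groups overlap for the other 6 genes.

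GPP1, the paralog of GPP2 and the more abundant phosphatase mRNA, did not pass the test. It had 1866, 2053 and 2101 CPM in the deletion replicates, against 2318, 2157 and 2013 CPM in the wild-type replicates. The groups overlapped. The GPP1 log2 fold change was -0.11 (SE 0.12, 95% interval -0.36 to 0.14, adjusted p = 0.83, edgeR), an interval that does not reach a 2-fold change in either direction. GPP1 (chromosome IX, 255115 to 255867, plus strand) was the highest of the 7 genes in both groups.

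The ratio of the reads of the phosphatase paralogs within each library does not depend on scaling between libraries. There were 0.306, 0.322 and 0.382 GPP2 reads per GPP1 read in the deletion, against 0.139, 0.127 and 0.138 in wild type. The groups did not overlap. The ratio was 2.49-fold higher in the deletion (exact permutation test, two-sided p = 0.10, the smallest that 3 against 3 libraries allow, and adjusted p = 0.20 over 4 ratios compared). GPP2 made up 25.1% ± 2.22 of the CPM of the pair in the deletion, against 11.9% ± 0.548 in wild type (SD, n = 3). The summed level of the pair was 2685 ± 235 CPM in the deletion, against 2454 ± 176 in wild type, with overlapping groups (exact permutation p = 0.20). With each library left out in turn, the log2 difference of the GPP2 to GPP1 ratio ran from 1.22 to 1.38. The ratios were chosen after the levels had been seen.

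**Figure D2:**
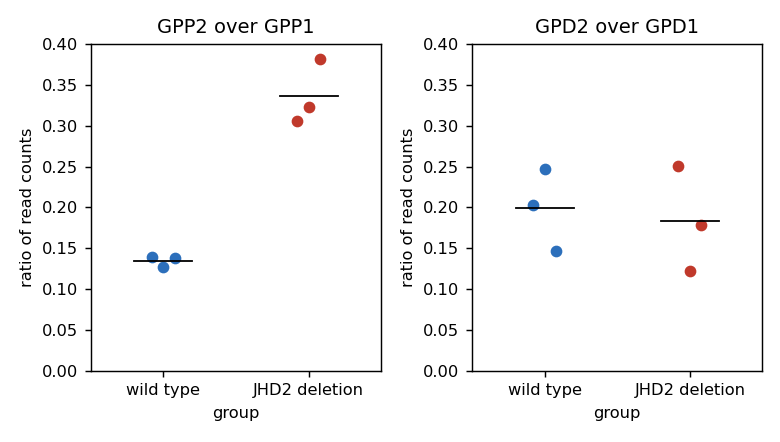
Reads of GPP2 per read of GPP1 (left) and of GPD2 per read of GPD1 (right) in each library, with bars at the means. The GPP2 to GPP1 ratio lies between 0.306 and 0.382 in the deletion and between 0.127 and 0.139 in wild type, while the GPD2 to GPD1 ratios of the groups overlap.

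GPD1, the osmotically induced isoform of the first enzyme, had 640, 769 and 683 CPM in the deletion replicates, against 640, 386 and 717 CPM in the wild-type replicates. The lowest value was that of wild-type replicate 2, and the other 5 libraries lay close together. The log2 fold change of 0.25 (SE 0.16, adjusted p = 0.64, edgeR) came to 0.03 without that library and to 0.41 without wild-type replicate 3 (adjusted p = 0.38), the ends of its range over single libraries left out. GPD1 lies on chromosome IV from 411825 to 413000 on the plus strand.

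GPD2, the isoform known for its role under low oxygen, had 161, 93.4 and 122 CPM in the deletion replicates, against 130, 95.5 and 105 CPM in the wild-type replicates. The groups overlapped, and the log2 fold change was 0.16 (SE 0.22, adjusted p = 0.87, edgeR). There were 0.251, 0.122 and 0.178 GPD2 reads per GPD1 read in the deletion, against 0.203, 0.247 and 0.146 in wild type. This ratio overlapped between groups as well (0.904-fold, exact permutation p = 0.80). GPD2 lies on chromosome XV from 217126 to 218448 on the plus strand. The ratio of GPP2 to GPD1 reads was 0.976 ± 0.173 in the deletion, against 0.534 ± 0.162 in wild type (SD, n = 3, exact permutation p = 0.10, adjusted p = 0.20), and that of GPP1 to GPD1 reads was 2.89 ± 0.205 and 4.00 ± 1.43 (exact permutation p = 0.30, adjusted p = 0.40).

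FPS1, the glycerol channel (chromosome XII, 49938 to 51947, plus strand), had 105, 131 and 124 CPM in the deletion replicates, against 130, 126 and 134 CPM in the wild-type replicates. The wild-type values lay in a narrow band, which deletion replicate 2 shared. The log2 fold change was -0.12 (SE 0.20, 95% interval -0.52 to 0.29, adjusted p = 0.90, edgeR).

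The genes of glycerol use were lower in level and did not pass the test either. GUT2, the mitochondrial dehydrogenase (chromosome IX, 51759 to 53708, minus strand), had 101, 74.7 and 139 CPM in the deletion replicates, against 117, 82.5 and 86.9 CPM in the wild-type replicates (log2 fold change 0.12, SE 0.23, adjusted p = 0.90, edgeR). That level includes reads that end inside the coding region. With clusters past the stop codon only, the GUT2 log2 fold change was 0.27 (adjusted p = 0.81, edgeR). GUT1, the glycerol kinase (chromosome VIII, 36379 to 38508, minus strand), had 19, 12 and 11 reads in the deletion libraries and 5, 10 and 8 in the wild-type ones. As a level this was 45.5, 32.0 and 23.1 CPM against 13.6, 43.4 and 29.0 CPM, with overlapping groups (log2 fold change 0.32, SE 0.41, adjusted p = 0.86, edgeR). The 95% interval of GUT1 ran from -0.50 to 1.15, so a change of 2-fold upward could not be told from none at this depth.

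Of the 7 genes tested, 1 was called higher and 0 lower, where 1.07% of all tested genes were called higher and 1.31% were called in either direction. The groups did not overlap in 1 of the 7 genes, against 15.6% of all tested genes, so that count is at the background. The median log2 fold change of the 7 genes was 0.16, and that of all tested genes was -0.00026. Of the 7 genes 5 were above 0, where 50% of all tested genes were. Among those 5, GPD2, GUT1 and GUT2 changed sign in alternative fits, as did FPS1, which was below 0.

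**Figure D3:**
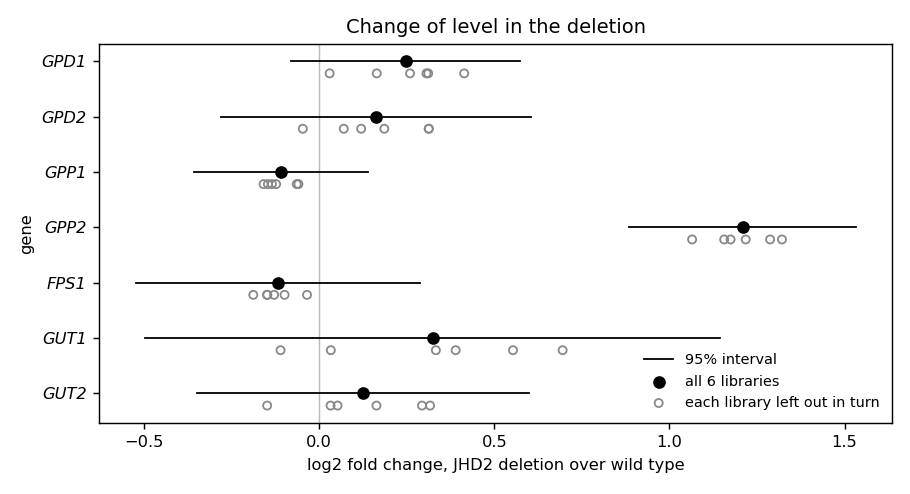
Log2 fold change of each glycerol gene in the deletion relative to wild type, with the 95% interval of the edgeR fit as a line and open circles for the fits that leave out each library in turn. GPP2 lies at 1.21 with an interval of 0.89 to 1.53, and the intervals of the other 6 genes include 0.

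In wild type, GPP1 (2162 CPM on average) was followed by GPD1 (581), GPP2 (292), FPS1 (130), GPD2 (110), GUT2 (95.3) and GUT1 (28.6). The ranges of the libraries overlapped between FPS1 and GPD2 and between GPD2 and GUT2, and the other neighbours in this order were separated. In the deletion GPP2 (678 CPM) came next to GPD1 (697), and there the ranges of these genes overlapped. Among all tested genes GPP2 stood at the 79.9th percentile of level in wild type and at the 92.0th in the deletion. GUT1 stood at the 3.74th and 7.78th percentile.

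The positions of the 3′ ends differed among the genes. GPD1, GPP1, GPP2 and GUT1 each had a site with most of the reads, 231, 159, 172 and 64 nt past the stop codon. FPS1 had its main site at 122 nt with 72.2% of all its reads. GPD2 was spread over 5 clusters from 117 to 273 nt, the most-read of which held 38.2% of its reads, and GUT2 had ends at 338 and 441 nt with 39.2% and 43.7%. Across all genes in the annotation the most-read cluster lay 124 nt past the stop codon in the median, and it held 71.4% of the reads of its gene in the median. Reads inside the coding region were found for GUT2, 13 nt into it (17.1% of its reads), and for GUT1, 90 nt into it (7.69%, or 5 reads). In the table as a whole, 39.4% of genes had a cluster inside the coding region.

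The downstream neighbours differed as well. The GPP2 site at 232 nt lay 72 nt before CEM1, which follows on the same strand. GPD1 and GPD2 are followed on the same strand by GPM2 and ARG1, 722 and 490 nt beyond their most distal clusters. GPP1, GUT2 and FPS1 face genes on the opposite strand. The GUT2 site at 441 nt lay 12 nt from the end of UBP7, and the FPS1 sites at 176 and 487 nt lay inside ATG10 on the opposite strand. The table gives no strand for a cluster, so the strand used here is that of the gene to which the authors assigned it.

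The relative use of sites was not called changed for any of the 6 genes that had 2 or more clusters with at least 20 reads in all. By the gene-level test of edgeR (diffSpliceDGE) 0 were called at an adjusted p under 0.05 and 0 had an unadjusted p under 0.05, where 0.21% of 2380 tested genes were called and 5.67% had such an unadjusted p, and limma-voom called 0 of the 6 as well. The unadjusted p ran from 0.064 for GUT2 to 0.85 for GPD2. The share at the most-read cluster did not overlap between groups in 2 of the 6 genes, GPP1 and GUT2, against 10.6% of 2379 genes.

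In GUT2 the site at 338 nt held 47.6%, 39.3% and 47.0% of GUT2 reads in the deletion replicates, against 27.9%, 26.3% and 33.3% in the wild-type replicates. The site at 441 nt held 38.1%, 39.3% and 42.4% in the deletion, against 48.8%, 52.6% and 45.8% in wild type. At both sites the groups did not overlap, with a larger share at the nearer site and a smaller share at the farther site in the deletion. The cluster in the coding region held 15.4% ± 5.50 in the deletion, against 21.7% ± 1.34 in wild type (SD, n = 3), with overlapping groups. These shares are parts of the same total, so they are not separate observations. How often groups do not overlap over all genes was counted for the most-read cluster alone, here the site at 441 nt. The differences were 15.4 and -9.17 percentage points (exact permutation p = 0.10 each, the smallest possible), and the gene-level adjusted p was 0.88 (edgeR). These shares rest on 136 GUT2 reads in the deletion libraries and 86 in the wild-type ones. The mean 3′ end of GUT2 over its 3 clusters, among them the cluster in the coding region, lay 133 nt later in the deletion (exact permutation p = 0.30). This difference was 77.0 nt without deletion replicate 3 and 202 nt without deletion replicate 2, and over the clusters past the stop codon it was -15.9 nt.

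In GPP1 the site at 130 nt held 12.3%, 13.4% and 12.5% of GPP1 reads in the deletion replicates, against 11.1%, 9.66% and 11.5% in the wild-type replicates. The groups did not overlap, although the difference was 1.97 percentage points (exact permutation p = 0.10, gene-level adjusted p = 0.95, edgeR). The mean 3′ end of GPP1 moved by -0.573 nt, from 25.9 ± 0.283 nt past the nearer site in wild type to 25.3 ± 0.166 nt in the deletion (SD, n = 3).

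The main site of GPP2, at 172 nt, had 234, 234 and 365 reads in the deletion libraries and 116, 62 and 76 in the wild-type ones. It held 96.1% ± 2.03 of the gene's reads in deletion libraries, against 98.2% ± 0.639 in wild-type ones (SD, n = 3), and those shares overlapped between groups. The site at 232 nt had 4, 8 and 10 reads against 3, 1 and 1. A further site at 105 nt had 0, 6 and 7 reads in the deletion, against 0 in each wild-type library. The share in the deletion was 1.50% (13 of 868 reads, exact 95% interval 0.80% to 2.55%). In wild type it was 0 of 259 reads. The limit set by 3 counts is then 1.16%, and the exact 95% interval reaches 1.41%. The intervals overlap, but they pool the reads of each group, and their overlap is not a test of a difference. These limits cover counting error only. The gene-level adjusted p of GPP2 site usage was 0.98 (edgeR), a test that leaves out the site at 105 nt because it had fewer than 20 reads.

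The sites of GPD1, GPD2 and FPS1 held shares that overlapped between groups. The GPD1 site at 231 nt held 91.5% ± 1.72 in the deletion, against 91.6% ± 1.68 in wild type. The GPD2 site at 273 nt held 29.9%, 62.9% and 31.0% in the deletion, against 29.2%, 50.0% and 48.3% in wild type. That wide spread came with 160 GPD2 reads in the deletion libraries and 99 in the wild-type ones. The FPS1 site at 122 nt held 75.3% ± 4.21 and 68.9% ± 3.09 (exact permutation p = 0.20).

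**Figure D4:**
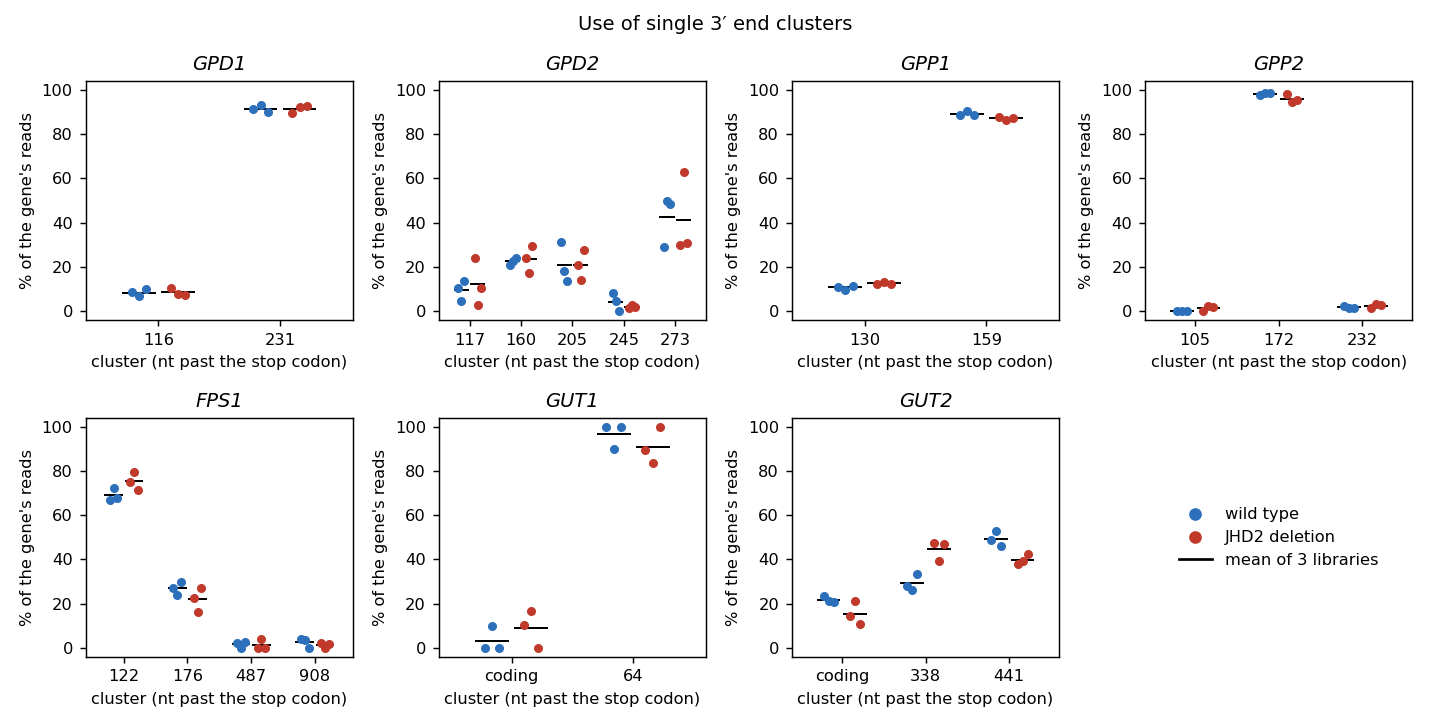
Share of the reads of each gene at each of its clusters (percent, a point per library, bars at the means), with clusters named by their distance past the stop codon and "coding" for a cluster inside the coding region. In GUT2 the mean shares of the nearer (338 nt) and the farther (441 nt) site exchange order between the groups, although both sites hold 39.3% in deletion replicate 2, with means of 44.6% and 39.9% in the deletion but 29.2% and 49.1% in wild type.

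The letters around the genes were searched for known elements. Within the 100 nt before the most-read cluster, on the same strand, TATATA was found in 1 of 7 genes (FPS1) and in 45.0% of all genes, TACATA in 3 of 7 and 21.6%, AATAAA in 2 of 7 and 20.7%, and AAAAAA in 4 of 7 and 21.3%. In the 500 nt before the start codon, on either strand, the core of the stress response element, AGGGG, was found in 6 of the 8 listed genes and in 34.1% of 6000 promoters. GPD1 had 3 matches, beginning 34, 286 and 330 nt before the start codon, and 1.83% of promoters hold at least as many. GPD2 had 2, beginning 14 and 319 nt before it. GPP2, GUT1, GUT2 and STL1 had 1 each, that of GPP2 beginning 274 nt before the start codon. None was found in the windows of GPP1 and FPS1. These matches describe the letters in the windows and do not show that a factor binds there.

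Genes connected to glycerol were taken from lists of known function. The high osmolarity glycerol (HOG) pathway, the kinase cascade that senses osmotic stress and acts on glycerol synthesis, had 19 of 21 listed genes tested. Of these 0 were called (edgeR), where 1.31% of all tested genes were called in either direction, and the DESeq2 test called 0. An unadjusted p under 0.05 (edgeR) was found for 2 of them, where 9.83% of all tested genes had one. The median log2 fold change of the 19 genes was -0.12, with 8 above 0, where 50% of all tested genes were above 0. The lowest p were those of SKO1, a transcription factor under Hog1 (41.5 ± 4.15 CPM in the deletion against 78.6 ± 4.75 in wild type, log2 fold change -0.91, SE 0.27, adjusted p = 0.082, edgeR), and of SSK1, a response regulator (-0.62, SE 0.25, adjusted p = 0.33, edgeR). The kinase gene HOG1 stood at 186 ± 27.0 and 186 ± 23.7 CPM.

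Among other genes known to be induced by osmotic stress, 4 of 10 were tested, and 1.07% of all tested genes were called higher. Of the 4 genes 1 rose, CTT1, the cytosolic catalase. It had 76.7, 82.7 and 101 CPM in the deletion replicates, against 24.4, 34.7 and 61.5 CPM in the wild-type replicates, without overlap (log2 fold change 1.16, SE 0.29, adjusted p = 0.025, edgeR). The CTT1 call was lost in 8 of 13 alternatives, among them the fits without deletion replicate 2 (adjusted p = 0.076) or 3 (0.19), without wild-type replicate 1 (0.29) or 2 (0.061), and DESeq2 (0.34). The other 3 genes did not pass (edgeR). HSP12, a membrane-associated small stress protein, had 0.51 (SE 0.27, adjusted p = 0.55), ALD3, an aldehyde dehydrogenase, had 0.23 (SE 0.27, adjusted p = 0.85) and SIP18 had -0.45 (SE 0.36, adjusted p = 0.73). The median of the 4 genes was 0.37, and it was 0.15 without wild-type replicate 1 and 0.56 without wild-type replicate 2.

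Of the enzymes that share metabolites or NADH with glycerol synthesis, 3 of 8 were tested, where 1.07% of all tested genes were called higher. Among the 3 genes 1 rose, NDE1, the external mitochondrial NADH dehydrogenase, which oxidises the same cytosolic NADH. It had 1006, 1065 and 1070 CPM in the deletion replicates, against 687, 660 and 796 CPM in the wild-type replicates, without overlap (log2 fold change 0.55, SE 0.14, adjusted p = 0.023, edgeR). Without deletion replicate 1, 2 or 3 or wild-type replicate 1 its adjusted p was 0.059, 0.21, 0.12 and 0.11, at log2 fold changes of 0.58, 0.53, 0.53 and 0.51. The NDE1 call was kept in 7 of 13 alternatives and also lost with the most-read cluster alone (adjusted p = 0.097) and with the replicate block (0.061). SCT1, an acyltransferase that uses glycerol 3-phosphate, had 0.38 (SE 0.34, adjusted p = 0.76, edgeR), and the median of the 3 genes was 0.38. In the dihydroxyacetone route, the other route of glycerol use, 1 of 4 genes was tested. This was GCY1, a glycerol dehydrogenase, with 86.3, 77.4 and 69.3 CPM in the deletion replicates, against 27.1, 52.1 and 36.2 CPM in the wild-type replicates. It did not pass the threshold (log2 fold change 1.07, SE 0.29, adjusted p = 0.051, edgeR). GCY1 was called in 1 of 13 alternatives, without wild-type replicate 2 (1.30, adjusted p = 0.021), and the adjusted p reached 0.34 without wild-type replicate 1 (0.82) and 0.51 with DESeq2.

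Of 16 known regulators of these genes, 9 were tested and 0 were called by edgeR or by DESeq2, where edgeR called 1.31% of all tested genes. An unadjusted p under 0.05 (edgeR) was found for 2 of the 9, a threshold that 9.83% of all tested genes passed. The median was 0.16. USV1, a transcription factor linked to growth on glycerol and other nonfermentable carbon sources, had 69.4 ± 26.3 CPM in the deletion, against 30.2 ± 11.9 in wild type (log2 fold change 1.14, SE 0.33, adjusted p = 0.080, edgeR). USV1 was called in 1 of 13 alternatives, without deletion replicate 1 (1.35, adjusted p = 0.029), while without deletion replicate 3 it had 0.76 (adjusted p = 0.53), without wild-type replicate 2 it had 0.91 (0.26), and the DESeq2 adjusted p was 0.57. MSN4, an activator that binds the stress response element, had 0.47 (SE 0.22, adjusted p = 0.48, edgeR).

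**Figure D5:**
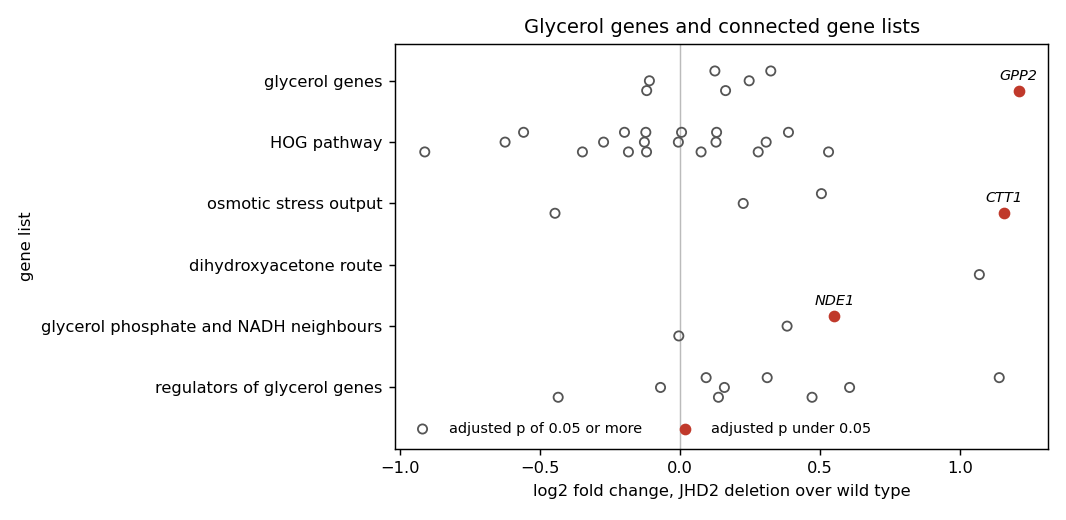
Log2 fold change, deletion over wild type, of the tested glycerol genes and of the tested genes of 5 connected lists, with filled points for an adjusted p under 0.05 (edgeR). GPP2 (1.21), CTT1 (1.16) and NDE1 (0.55) are the filled points, and the HOG pathway genes lie between -0.91 and 0.53.

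Across the 6 libraries, the genes with log-scaled levels most like those of GPP2 were PGM2, a phosphoglucomutase (Pearson r = 0.98), and YGP1, a secreted glycoprotein (0.98), of 3365 genes compared. For GPD1 these were TSR1 (0.99) and GIM4 (0.99), for GPP1 HCM1 (0.99) and PUF6 (0.99), for FPS1 ATX2 (0.99) and BET1 (0.97), and for GUT2 YKL091C (0.99) and FYV6 (0.96). For GUT1 they were RNR2 (0.96) and CAB3 (0.95), and for GPD2 GAL83 (0.93) and CDC1 (0.93). These values are a description over 6 points that share library and depth. The group means were not removed, so for GPP2 a high value can reflect a shared difference between deletion and wild type. A correlation over 0.95 was found with 12 genes for GPP2, 42 for GPD1 and 0 for GPD2. GPP2 and GPP1 correlated at -0.37, and GPP2 and GPD1 at 0.52.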

How the data were processed

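The 6 libraries (3 JHD2 deletion, 3 wild type) were grouped by their titles. The values the authors deposited are raw read counts, 1 row for each cluster of pA sites. By the design text of the series, adapters were trimmed, reads mapped to sacCer3 with Bowtie2 (version unstated), and reads kept with unaligned 5′ T bases, and their ends were then clustered and assigned to genes extended past the coding end. Weakly used clusters were removed, and the table lists only genes with at least 2 clusters, so column totals are not library depths. Names and gene positions came from RefSeq R64, which matched 4013 of 4014 identifiers. No source used here says if positions start at 0 or 1, which leaves distances uncertain by 1 nt.

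Counts were summed per gene and tested with edgeR 4.0.16 in R 4.3.3 (quasi-likelihood test, TMM scaling, filterByExpr, a group term alone, Benjamini-Hochberg adjustment over all tested genes, threshold 0.05). Site usage was tested with diffSpliceDGE on clusters holding at least 20 reads over all libraries. Alternatives used DESeq2 1.42.0 (on the genes that passed the filter) and limma 3.58.1, and single values used exact permutation tests. Standard errors were derived from F. Both tests were tested on simulated data. The level test recovered 86.0% of 2-fold and 100% of 4-fold changes, with 6 false calls. The usage test recovered 83.4% of 4-fold changes, with 7 false calls. Each simulation gave the same dispersion to every gene or cluster. That of usage only raised the most-read cluster of a changed gene. It therefore does not give the power for smaller shifts or for genes with few reads. No pair of replicates differed by less than sampling noise (chi-square per degree of freedom 1.36 or more). The 200 nt before the main site of each gene had no match elsewhere longer than 40 nt. The genes and lists were chosen with earlier results of these data known. Named are all the glycerol genes, in each list the called genes or else the 2 with the smallest p, and for likeness the 2 best correlated genes, with HOG1, HSP12, ALD3, SIP18 and SCT1 added after their values were seen.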

Additional observations from a re-analysis of the deposited data

How the results depend on the processing

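The GPP2 call and its direction held in every alternative run: other scaling, no low-count filter, the DESeq2 test, clusters past the stop codon, the most-read cluster alone and each library left out. The number of glycerol genes called was 1 for level and 0 for site usage in every alternative run for each, but GPP2 usage was not tested with a cluster minimum of 50 reads or without deletion replicate 2 or 3. With the replicate number as a block the GPP2 log2 fold change was 1.20 (adjusted p = 2.4e-05, edgeR). Same-numbered libraries correlated in their deviations from the group means at -0.094, -0.028 and -0.011, so the numbers were not taken as pairs. Under that block CTT1 (1.13, adjusted p = 0.055) and NDE1 (0.55, adjusted p = 0.061) were no longer called, and 33 genes were called in all against 44 without it. DESeq2 called 24, the most-read cluster alone 27 and the fit without deletion replicate 2 gave 30. With all clusters past the stop codon SKO1 was called (-1.06, adjusted p = 0.041, edgeR), while CTT1 was not (0.064).

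Uncalled values changed sign for GPD2 without deletion replicate 1 (-0.047), GUT1 without wild-type replicate 1 (-0.11), GUT2 with its most-read cluster alone (-0.14) or without deletion replicate 3 (-0.15) and FPS1 with its most-read cluster alone (0.017). The full ranges over single libraries left out were -0.047 to 0.31 for GPD2, -0.11 to 0.69 for GUT1 and -0.15 to 0.32 for GUT2. The mean 3′ end difference changed sign for GPP2 with a cluster minimum of 10 reads (-0.526 nt) and for GUT2 with a minimum of 50 or past the stop codon only (-15.9 nt). Over single libraries left out it ran from -1.03 to 1.07 nt for GPD1 and from -17.1 to 1.58 nt for GPD2, and the log2 ratio of GPD2 to GPD1 differed by -0.40 to 0.12. The cause of these changes was not tested. Usage over all genes was called for 0 to 5 genes, none of them here. Depth limits GUT1 (65 reads in all) and the shares of GPD2, GUT2 and FPS1 (222 to 266 reads each).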
